A study of Mus with 4 samples.

Results

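The thermogenic effector genes of brown fat described here are *Ucp1*, *Dio2*, *Cidea*, *Cox7a1*, *Cox8b*, *Elovl3*, *Otop1*, *Letm1*, *S100b* and *Kng2*. They were chosen by name, and every m6A peak that carried 1 of these 10 gene symbols was taken. That gave 15 of 18400 peaks in the *Wtap* flox/flox list and 14 of 18693 peaks in the *Wtap*-BKO list. The mice were C57BL/6, fed normal chow and 8 weeks old. Both groups, of which the *Wtap* flox/flox mice are called controls below, carried floxed *Wtap* alleles, and *Wtap*-BKO mice carried *Ucp1*-iCre in addition, so *Wtap* was deleted where *Ucp1* is expressed and other cells of the tissue kept it. Poly(A)+ RNA of interscapular brown adipose tissue (iBAT) was pooled from 8 mice per group, and 1 m6A immunoprecipitate (IP) and 1 input were sequenced from each pool. A peak is an exonic stretch where IP reads exceed what the input predicts, and its fold enrichment is the ratio of IP to input that the authors listed. With 1 pool per genotype there are no replicates, so the lists are described side by side and no difference between them was tested. The depth is unknown, and a gene without a listed peak is only one where no peak passed the authors' threshold.

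Brown adipocytes burn fatty acids in their mitochondria and release the energy as heat, because UCP1 lets protons flow back across the inner membrane without making ATP. The other genes supply this process with thyroid hormone, lipid, respiratory chain subunits, ion transport or secreted signals. N6-methyladenosine (m6A) is written on mRNA by METTL3 and METTL14, with WTAP as a regulatory subunit, and is best known around stop codons and in 3ʹ-UTRs. Antibodies against m6A also bind m6Am, a related mark on the first base after the mRNA cap. In whole tissue, fewer brown adipocytes, less transcript per cell and less m6A per transcript cannot be told apart from peaks alone.

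All 10 genes had a peak in the control list, and 8 had a peak in the *Wtap*-BKO list. The 2 genes listed only in control mice were *Elovl3* and *Otop1*, and no gene was listed only in *Wtap*-BKO mice. Over all gene symbols with a control peak, 15.5% lacked one in *Wtap*-BKO mice, and 15.3% of those with a *Wtap*-BKO peak lacked one in controls. Peaks of the lists were matched where they overlapped by 1 or more exonic bases of the same strand, and a matched peak is called found. By this rule 8 of the 15 control peaks were found in *Wtap*-BKO mice (53.3%, 95% Wilson interval 30.1% to 75.2%), against 67.8% of the whole list. In the other direction 9 of 14 *Wtap*-BKO peaks were found (64.3%, interval 38.8% to 83.7%), against 68.0% of the whole list. Both intervals hold the share of the whole list. They cover counting error only and take peaks as independent, which those on 1 gene are not. Every control peak of *Ucp1*, *Cidea*, *Cox7a1* and *Cox8b* was found, and *Ucp1* had a further *Wtap*-BKO peak. *Dio2*, *S100b* and *Kng2* each had 1 of 2 control peaks found. No control peak of *Elovl3*, *Otop1* or *Letm1* was found, and of these only *Letm1* had *Wtap*-BKO peaks, at other places.

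**Figure D1:**
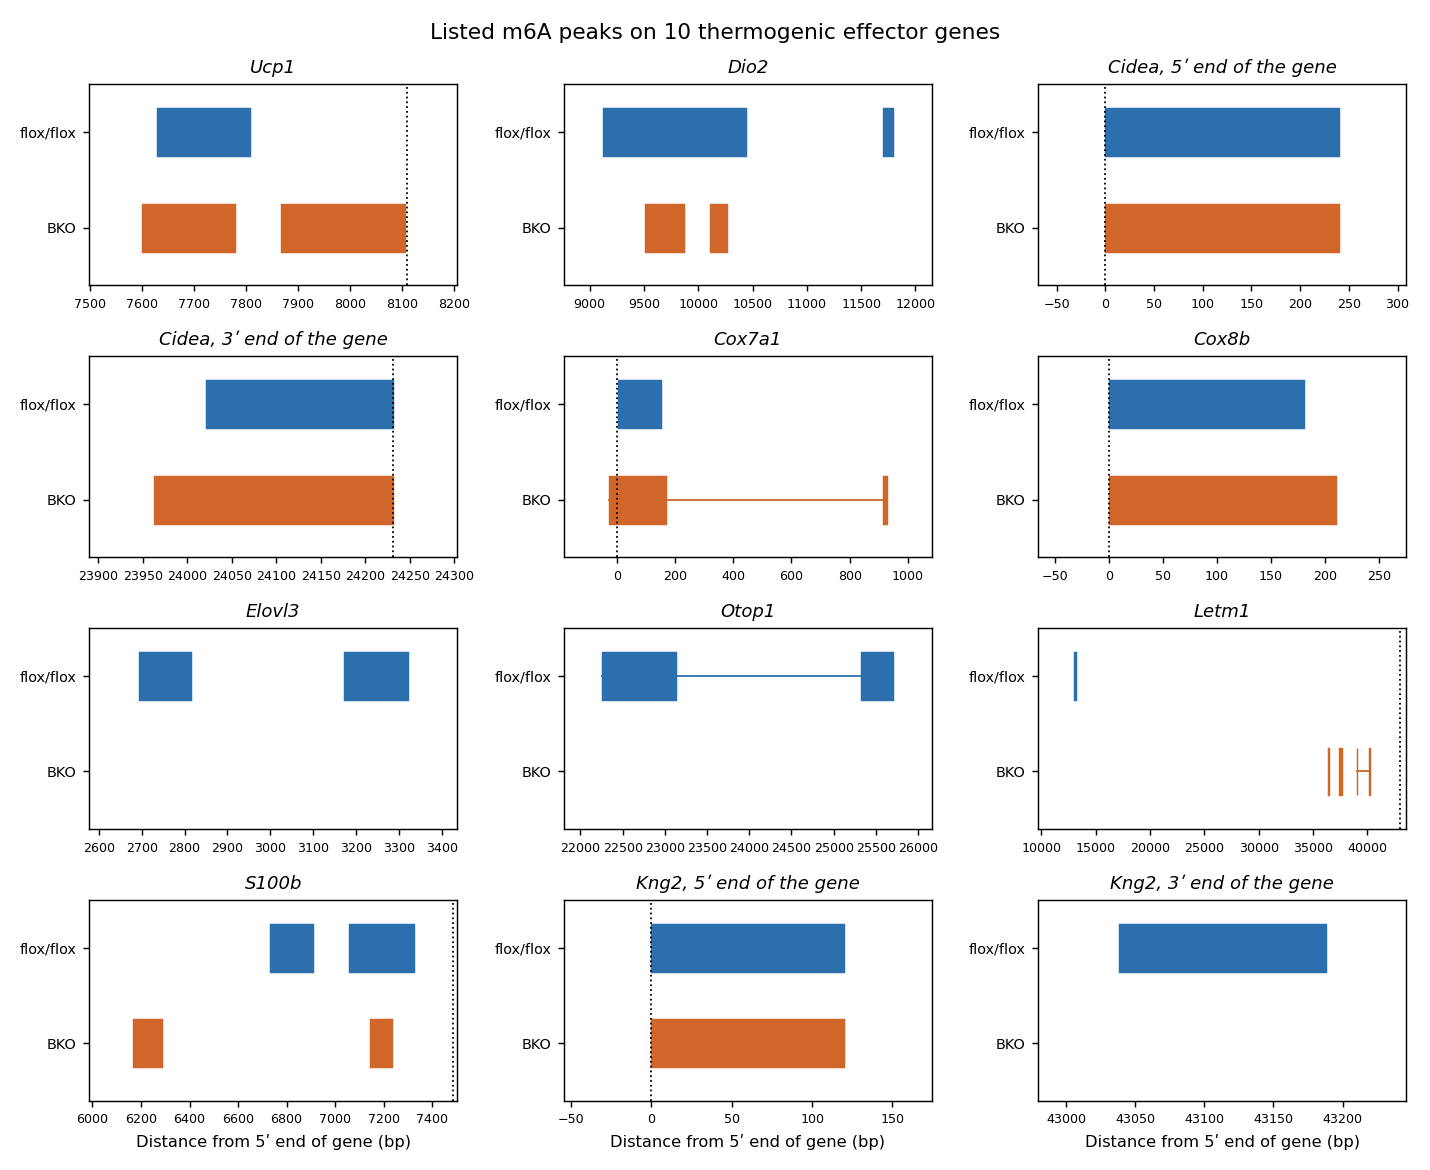
Position of every listed peak on the 10 genes, drawn to scale against the distance from the 5ʹ end of the gene in RefSeq (bp, in the direction of transcription), with control (*Wtap* flox/flox) peaks above and *Wtap*-BKO peaks below. Filled boxes are exonic blocks, thin lines join the blocks of 1 peak, dotted lines mark gene ends, and the windows differ in width; *Cidea* and *Kng2* are shown at each end, and the *Wtap*-BKO row is empty for *Elovl3* and *Otop1*.

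*Ucp1* (ENSMUSG00000031710) encodes the uncoupling protein itself and spans 83290348 to 83298456 of chromosome 8 (GRCm38, plus strand). Its peaks all lay in the last part of the gene. The control peak, from 83297976 to 83298155, covered 180 bases and stopped 301 bp before the 3ʹ end. The first *Wtap*-BKO peak, from 83297947 to 83298125, lay 29.5 bp upstream by its centre, covered 179 bases, and shared 150 of them. The second *Wtap*-BKO peak covered 239 bases at 83298214 to 83298452, stopped 4 bp before the 3ʹ end and was separated from the control peak by 58 bases. Fold enrichment was among the lowest of each list, 1.60 in control mice and 1.49 at the matching place in *Wtap*-BKO mice. By false discovery rate (FDR) the same peaks were stronger than 83.4% and 76.5% of their lists. The second *Wtap*-BKO peak had a fold enrichment of 2.78, above 23.8% of the list, and was stronger than 74.0% of it. *Wtap*-BKO mice differ from the controls at this very gene, since the IRES-Cre insert sits just before the 3ʹ-UTR of *Ucp1* and is described in the methods as giving lower levels of *Ucp1* and Cre, and its part in these peaks was not tested.

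*Dio2* (ENSMUSG00000007682, minus strand of chromosome 12) encodes the deiodinase that turns thyroxine into the active hormone triiodothyronine inside brown adipocytes. Its main control peak was broad, with 1319 bases from 90728598 to 90729916 in 1 block, wider than 99.3% of the list. It was enriched 14.7-fold at a log10 FDR of −48.0. In *Wtap*-BKO mice there were 2 narrow peaks inside the same stretch, of 361 and 150 bases, and together they covered 38.7% of it. Among the 12483 control peaks found in *Wtap*-BKO mice, 8.04% had a smaller share covered, and the median share was 86.7%. The wider of them, from 90729167 to 90729527, had a fold enrichment of 26.2, above 97.7% of its list. Its log10 FDR was −12.7, stronger than 70.0% of the list, while the control peak was stronger than 88.8% of its own. The other was near the threshold, with a log10 FDR of −1.92. A second control peak, of 91 bases from 90727249 to 90727339, was not found and was itself stronger than only 0.978% of its list.

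Of the genes of lipid handling, *Cidea* kept its peaks and *Elovl3* did not. *Cidea* (ENSMUSG00000024526, plus strand of chromosome 18), which encodes a protein of the lipid droplet surface, had 1 peak at each end of the gene in both lists. The peak at the 5ʹ end began at the first base of the RefSeq gene and had the same borders in both lists, 67343564 to 67343803. Only 885 of all control peaks (4.81%) had identical blocks in the *Wtap*-BKO list, and 2 of them lay on these 10 genes. This peak had a fold enrichment of 4.45 in control and 3.16 in *Wtap*-BKO mice and was stronger than 70.1% and 72.8% of the lists. In *Wtap*-BKO mice 20 of its bases were also under a peak of the opposite strand, on a gene without a symbol (ENSMUSG00000046415). Whether strand was kept in the counting is not stated, so reads of these 2 genes cannot be told apart there. The peak at the 3ʹ end stopped at the last base of the gene and covered 210 bases in control and 269 in *Wtap*-BKO mice. Its log10 FDR was −130 in control mice, and in *Wtap*-BKO mice the FDR was listed as 0, as for 83 peaks of that list. Fold enrichment there was 1.84 and 2.63, above 3.07% and 20.8% of the lists.

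*Elovl3* (ENSMUSG00000038754, plus strand of chromosome 19) encodes an elongase of very long chain fatty acids that is induced in brown fat by cold. It had 2 control peaks and none in *Wtap*-BKO mice. The first, 121 bases from 46134590 to 46134710, was enriched 6.56-fold at a log10 FDR of −4.01. The second, 150 bases from 46135068 to 46135217, was enriched 10.5-fold at −1.78. Neither was strong, as they exceeded 28.5% and 1.64% of the list by FDR. With the list ranked by FDR and divided into 5 equal classes, 43.4% and 58.5% of control peaks in the classes that hold them were not found in *Wtap*-BKO mice. With an FDR under 1e-05 asked for, *Elovl3* has no control peak either.

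*Cox7a1* and *Cox8b* encode the isoforms of cytochrome c oxidase subunits that heart, skeletal muscle and brown fat use. Each gene had 1 peak, at its 5ʹ end, in both lists. On *Cox7a1* (ENSMUSG00000074218, plus strand of chromosome 7) the control peak ran from 30184174 to 30184322, starting 3 bp inside the gene. The *Wtap*-BKO peak held all 149 of its bases, began 27 bp before the RefSeq start and reached over a splice junction into 13 bases at 30185085 to 30185097. Fold enrichment was 4.20 and 6.00, and the log10 FDR −20.3 and −46.8. The rank by FDR went from 73.6% to 92.4%, a difference of 18.8 percentage points, and 75.9% of all found control peaks had a lower difference.

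On *Cox8b* (ENSMUSG00000025488, minus strand of chromosome 7) the peaks ended at the first base of the transcript, 140900446, and covered 181 bases in control and 210 in *Wtap*-BKO mice. An FDR of 0 was listed in both. By p-value these were among the strongest peaks of each list, exceeding 99.8% and 99.9% of the peaks, with a fold enrichment of only 4.23 and 4.39. Skeletal muscle also makes both subunits, and peaks on muscle markers differed in number between the lists. Of 24 muscle markers, 8 had a peak in both lists, 8 in *Wtap*-BKO mice only (*Casq1*, *Myh1*, *Myh2*, *Pvalb*, *Tnnc2*, *Tnni2*, *Tnnt3* and *Ttn*) and 8 in neither. Over all gene symbols with a *Wtap*-BKO peak, 15.3% had none in controls. The number of peaks on the muscle markers was 9 in control and 28 in *Wtap*-BKO mice, and its part in the *Cox7a1* and *Cox8b* peaks was not tested.

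*Otop1* and *Letm1* encode transport proteins, and none of their peaks was found in the other list. *Otop1* (ENSMUSG00000051596, plus strand of chromosome 5) encodes a proton channel. Its control peak was spliced, with blocks of 871 bases from 38299661 to 38300531 and 387 bases from 38302724 to 38303110. The 1258 bases made it wider than 99.1% of the list, its fold enrichment was 8.18 and its log10 FDR −72.7. No *Wtap*-BKO peak was listed anywhere on the gene. Of the 1239 control peaks that were at least as strong, 93 (7.51%) had no *Wtap*-BKO counterpart. It was the only unmatched peak among the 6 on these genes in the strongest of the 5 FDR classes into which the list was divided.

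*Letm1* (ENSMUSG00000005299, minus strand of chromosome 5) encodes a protein of the inner mitochondrial membrane that exchanges cations for protons. Its peaks did not overlap between the lists. The control list had 1 weak peak of 121 bases, from 33769580 to 33769700, which was enriched 1.39-fold at a log10 FDR of −3.56. The *Wtap*-BKO list had none there and 3 peaks at least 23237 bases away, toward the 3ʹ end. The middle peak, from 33745053 to 33745323, was enriched 16.7-fold at a log10 FDR of −36.2. Of the 1933 *Wtap*-BKO peaks that were at least as strong, 32 (1.66%) had no control peak on them. The last peak, spliced over 33742460 to 33743669, was enriched 1.86-fold at −27.2, and the first, from 33746222 to 33746342, 2.15-fold at −7.25. *Letm1* is thus among the genes that count as shared because both lists have a peak, although no base was shared.

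The secreted proteins were *S100b* and *Kng2*. *S100b* (ENSMUSG00000033208, plus strand of chromosome 10) encodes a calcium-binding protein that brown adipocytes release and that favours sympathetic innervation, and Schwann cells make it too. The main control peak covered 268 bases from 76260892 to 76261159 and was enriched 5.55-fold at a log10 FDR of −28.7. Within it, the *Wtap*-BKO list had a peak of 90 bases with the same centre, 1.74-fold enriched at a log10 FDR of −1.87. The rank by FDR was 80.5% in control and 2.65% in *Wtap*-BKO mice, a difference of −77.8 percentage points. Only 0.152% of all found control peaks had a lower value. A weaker control peak from 76260566 to 76260744, 1.65-fold enriched, was not found. A *Wtap*-BKO peak from 76260002 to 76260121, 2.07-fold enriched at a log10 FDR of −2.85, had no control peak on it. Of 15 Schwann cell markers, 9 had peaks in both lists, 1 in control mice only (*Erbb3*) and 2 in *Wtap*-BKO mice only (*Mal* and *Pmp22*). Over all gene symbols, 15.5% of those with a control peak and 15.3% of those with a *Wtap*-BKO peak lacked one in the other list. The Schwann cell markers carried 14 peaks in control and 21 in *Wtap*-BKO mice, and their part in the *S100b* values was not tested.

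*Kng2* (ENSMUSG00000060459, minus strand of chromosome 16) encodes a kininogen, the precursor that kallikreins cut to kinins. Its peak at the 5ʹ end, from 23028982 to 23029101, had identical borders in both lists and began at the first base of the gene. The fold enrichment was 4.02 and 4.59, and the log10 FDR −17.8 and −11.9. A second control peak at the other end of the gene, from 22985914 to 22986063, was enriched 1.71-fold at a log10 FDR of −3.01 and was not found in *Wtap*-BKO mice. Kininogen is best known from liver. Of 12 hepatocyte markers, only *Cyp2e1* had a peak, in both lists, and *Alb* had none. A gene without a listed peak can still be transcribed, and the part of hepatocyte RNA in the *Kng2* peaks was not tested.

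The lists were also compared by the bases under peaks. In control mice peaks covered 1410 bases of *Dio2* and 1258 of *Otop1*, and from 121 (*Letm1*) to 450 (*Cidea*) bases of the other genes. In *Wtap*-BKO mice the range over the 8 genes with a peak was 120 (*Kng2*) to 573 (*Letm1*). All control bases of *Cidea*, *Cox7a1* and *Cox8b* were covered again in *Wtap*-BKO mice. On *Ucp1* 83.3% were covered again, on *Kng2* 44.4%, on *Dio2* 36.2%, on *S100b* 20.1% and on *Letm1*, *Elovl3* and *Otop1* 0. Read from the *Wtap*-BKO side, all bases of *Dio2* and *Kng2* lay under control peaks, and 35.9% of those of *Ucp1*. Widths also depend on how many reads a list rests on, which is not known.

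**Figure D2:**
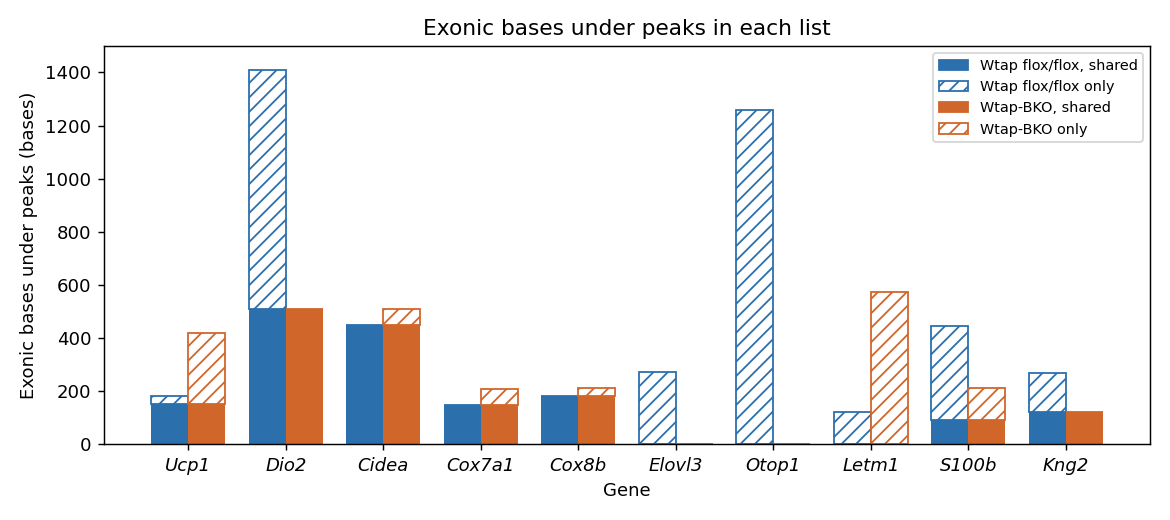
Exonic bases under peaks on each of the 10 genes, in control (blue) and *Wtap*-BKO mice (orange), with filled parts for bases under peaks in both lists and hatched parts for bases in that list only. *Dio2* and *Otop1* had the most bases in control mice (1410 and 1258), and *Letm1* in *Wtap*-BKO mice (573).

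Most peaks on these genes had a lower fold enrichment than the median of their list, and by FDR they lay on both sides of it. The median fold enrichment of the 15 control peaks was 4.20, against 6.58 for the whole list, and 12 of them were below the list's median. For the 14 *Wtap*-BKO peaks it was 2.74 against 4.65, with 11 below. By FDR, 9 of 15 and 11 of 14 peaks were stronger than the median of their list. An FDR under 1e-05 was listed for 9 of 15 control peaks (60%, against 63.1% of the whole list) and 11 of 14 *Wtap*-BKO peaks (78.6%, against 58.4%). The combination of lower fold enrichment and stronger FDR than the median was seen in 7 of 15 (46.7%) and 8 of 14 (57.1%) peaks, and in 22.3% and 22.7% of the whole lists. *Ucp1* and the 3ʹ peak of *Cidea* were among these, and the second control peak of *Elovl3* was the other way round, above 68.9% of its list by fold enrichment and 1.64% by FDR. The peaks on 1 gene are not independent. How the fold enrichment was scaled is not stated. Values given side by side for the 2 genotypes therefore describe each list and are not read as a difference between genotypes.

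**Figure D3:**
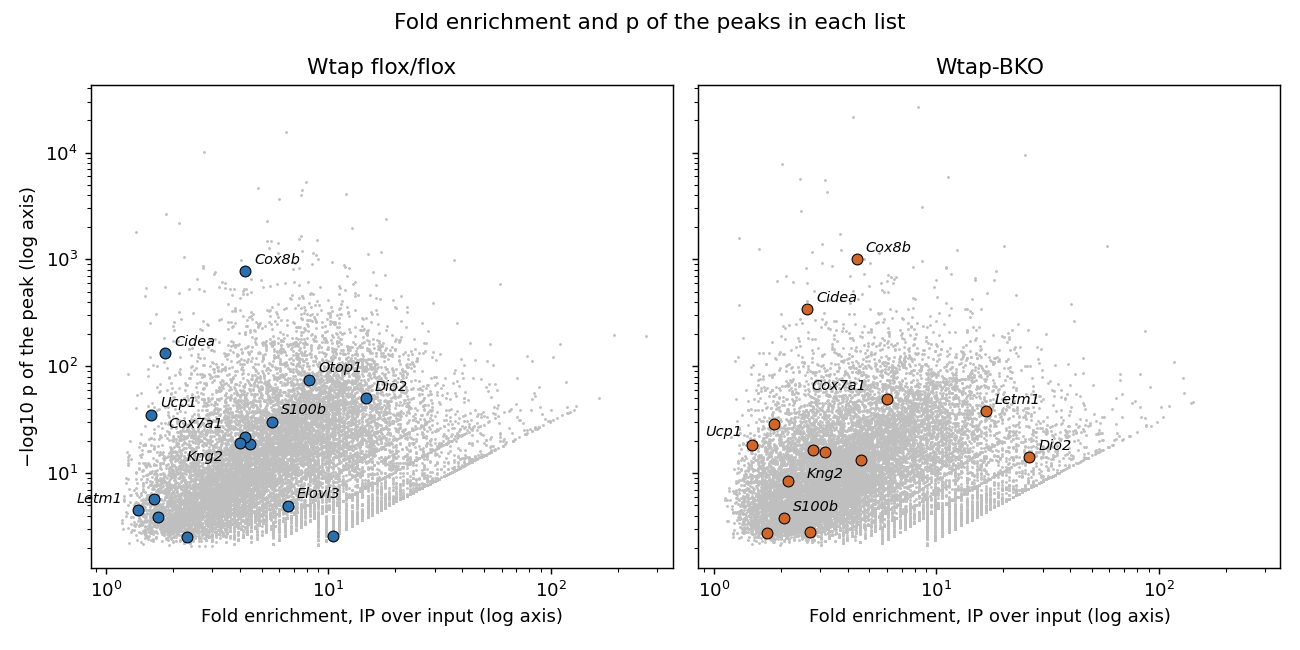
Fold enrichment of IP over input (x, log axis) against −log10 of the p-value (y, log axis) for all peaks of each list (grey) and for the peaks on the 10 genes (coloured, the peak with the smallest p of each gene named). *Ucp1* (1.60 and 1.49) and *Cidea* (1.84 and 2.63) lie at the left edge with small p-values, *Cox8b* lies near the top, and *Dio2* lies at the right.

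Of the 9 control peaks in the strongest 2 of the 5 FDR classes, 8 were found and only *Otop1* was not, while all 6 in the weakest 2 classes were not found. In the whole control list 9.47% and 17.3% of the strongest 2 classes were not found, and 43.4% and 58.5% of the weakest 2. On the *Wtap*-BKO side, 3 of the 10 peaks in the strongest 2 classes were not found, the later *Ucp1* peak and 2 *Letm1* peaks, while 1 of the 3 peaks in the weakest class was not found. There the strongest 2 classes of the whole list had 2.49% and 13.1% not found and the weakest class 63.6%.

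**Figure D4:**
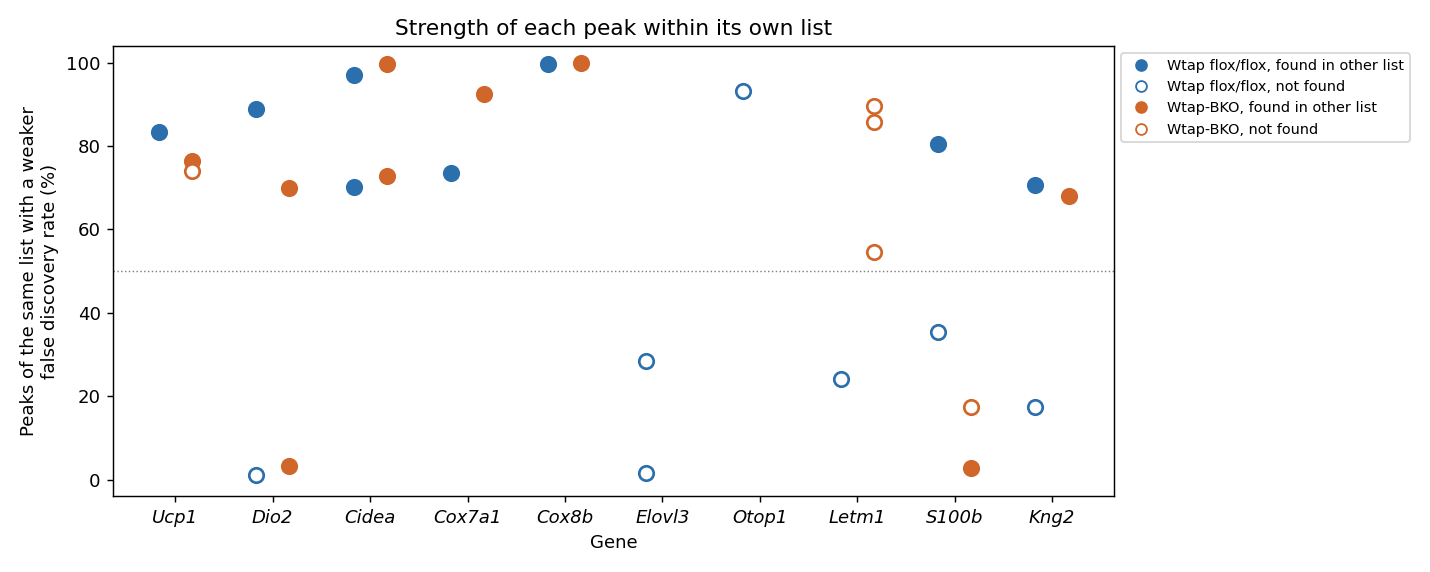
Strength of each peak on the 10 genes, as the percentage of peaks in its own list with a weaker FDR, for control (blue) and *Wtap*-BKO mice (orange). Filled points were found in the other list and open points were not; *Otop1* in control mice (93.3%) and *Letm1* in *Wtap*-BKO mice (89.7%, 85.7% and 54.5%) and the later *Ucp1* peak in *Wtap*-BKO mice (74.0%) are open and above the median (dotted line).

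Peaks at the 5ʹ end were all found, and those near the 3ʹ end in part. In each list 4 peaks reached to 30 bp or less from the RefSeq 5ʹ end of their gene, those of *Cidea*, *Cox7a1*, *Cox8b* and *Kng2*, and all 4 were found in the other list. For comparison, 16303 control and 16617 *Wtap*-BKO peaks had their centre inside the RefSeq span of their gene. Of those, 3.59% and 5.12% lay so close to the 5ʹ end, and 86.0% and 64.8% of the close ones were found. Near the 3ʹ end, with the centre within 1000 bp, there were 6 control peaks, 3 of them found, and 4 *Wtap*-BKO peaks, 3 of them found. Among all peaks inside the span of their gene, the shares found near the 3ʹ end were 62.4% and 69.6%. These distances refer to the ends of genes in the RefSeq table, and the 5ʹ window of 30 bp was chosen after the positions had been seen. Stop codons, UTRs and the sequence under the peaks were not analysed here.

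Paralogs of the 10 genes were described in the same way. Of 29 paralog names, 10 had a peak in both lists, 1 in control only and 4 in *Wtap*-BKO only. Thus 1 of 11 paralogs with a control peak and 4 of 14 with a *Wtap*-BKO peak lacked one in the other list. Over all gene symbols these shares were 15.5% and 15.3%. Of their peaks, 15 of 22 control and 17 of 25 *Wtap*-BKO peaks were found in the other list (68.2% and 68.0%, against 68.8% each way over all gene symbols). *Cidec*, whose protein enlarges lipid droplets, had 3 control peaks and 1 *Wtap*-BKO peak. Its strongest control peak covered 420 bases up to the 3ʹ end, with a fold enrichment of 3.54, and a *Wtap*-BKO peak of 180 bases, 1.59-fold enriched, lay inside it. A control peak of 330 bases on *Cidec*, at a log10 FDR of −94, was not found. Its remaining control peak, of 121 bases at −3.22, stopped 1009 bp from the 5ʹ end and was not found either. *Cideb* had 1 peak of 179 bases with identical borders in both lists.

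Among the relatives of *Ucp1*, *Ucp2* had 2 peaks in each list, at both ends of the gene, and each was found. *Ucp3* had 4 peaks in each list. The broad control peak of *Ucp3*, 1106 bases from 100485029 to 100486134 on chromosome 7 with a fold enrichment of 8.59, was met by 2 *Wtap*-BKO peaks of 180 and 478 bases, enriched 1.47-fold and 3.55-fold. A control peak of 240 bases at the very 3ʹ end of *Ucp3* was not found.

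*Elovl3* was listed only in control mice, but the other elongases with peaks, *Elovl1*, *Elovl5* and *Elovl6*, had them in both lists. *Elovl1* had 510 bases under its peak in control and 570 in *Wtap*-BKO mice. *Elovl6* had 5 peaks in each list, and its peak at the 5ʹ end had a fold enrichment of 7.64 and 10.4. Its control peaks of 240 and 270 bases, at a log10 FDR of −91.4 and −69, were not found in *Wtap*-BKO mice. A *Wtap*-BKO peak of 121 bases on *Elovl6*, at −5.82, had no control peak on it. Of the oxidase relatives, *Cox7a2l* had a peak of 589 bases, 6.99-fold enriched, in control mice and of 236 bases, 2.39-fold enriched, in *Wtap*-BKO mice. *Cox7b* had an identical peak of 238 bases in both lists and a further *Wtap*-BKO peak, 1.12-fold enriched. *Cox7a2* had only a *Wtap*-BKO peak, with a log10 FDR of −2.15. *Letm2* was listed only in control mice, with peaks at a log10 FDR of −4.85 and −3.2. In the S100 family, *S100a4*, *S100a10* and *S100a16* were listed only in *Wtap*-BKO mice, and *S100a1* in both. The log10 FDR was −3.01 for *S100a4*, −10.9 for *S100a10* and −5.87 for *S100a16*.

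The wider programme of brown fat thermogenesis was followed in 56 gene names (55 genes, as *Gyk* is an older name of *Gk*). Of these names, 45 had a peak in either list. Among the 45, 38 had peaks in both lists, against 73.3% of all symbols with a peak in either list. A further 4 had them in control only (*Acot2*, *Gk*, *Pm20d1* and *Slc27a2*) and 3 in *Wtap*-BKO only (*Cox5b*, *Cycs* and *Sirt3*). All 7 were named after their values had been seen. Of the peaks on these genes, 77 of 113 in control mice were found in *Wtap*-BKO mice (68.1%, interval 59.1% to 76.0%) and 78 of 101 in the other direction (77.2%, interval 68.1% to 84.3%). The median fold enrichment was 4.31 in control and 2.84 in *Wtap*-BKO mice, each below its list's 6.58 and 4.65. All 14 brown adipocyte markers, most of them also in that list, *Adipoq*, *Prdm16* and *Adrb3* among them, had peaks in both lists, 48 in control and 38 in *Wtap*-BKO mice. Of these peaks, 32 of 48 (66.7%) and 32 of 38 (84.2%) were found in the other list, against 68.8% each way over all gene symbols.

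**Figure D5:**
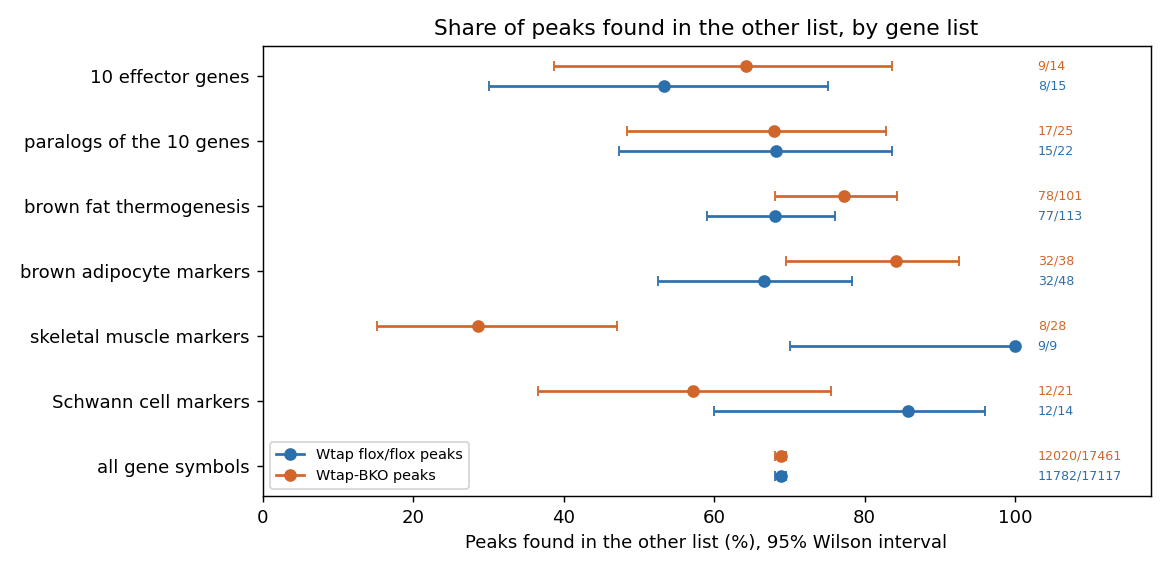
Share of peaks found in the other list (%, points) with 95% Wilson intervals (bars, counting error only, peaks taken as independent) for gene lists and for all gene symbols, with control peaks in blue and *Wtap*-BKO peaks in orange and counts at the right. The intervals of the 10 effector genes hold the shares of all symbols (68.8% in each direction). On muscle markers 9 of 9 control and 8 of 28 *Wtap*-BKO peaks were found, and so few control peaks leave few to be matched.

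Genes most like each of the 8 genes with peaks in both lists were sought by the distance between 4 percentiles, those of FDR and fold enrichment of the strongest peak in each list, over 7409 genes with peaks in both lists, which leaves out *Elovl3* and *Otop1*. For *Ucp1* they were *Ndufa10*, a complex I subunit, *Phyh*, a peroxisomal hydroxylase, and *Tapbp*, at 6.44, 8.88 and 10.1 percentage points. Their fold enrichment was 1.45 to 2.01 in both lists, which follows from the choice, since the distance uses fold enrichment. For *Cidea* they were *Gpx3*, *Bsg* and *Scd1*, at 3.99, 4.21 and 4.89 points, and for *Cox8b* the nearest was *Cavin1*, at 2.30 points. *Letm1* had no close neighbour, as the nearest gene, *Calm2*, was 19.1 points away. The nearest to *Dio2* was *Gm15557* at 4.52 points, to *Cox7a1* *Rabl6* at 4.77, to *Kng2* *Hist3h2a* at 5.93 and to *S100b* *Dnal4* at 8.03. For *S100b* and *Letm1* the strongest peaks of the lists lie at different places on the gene, so their percentiles do not refer to the same peak.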

How the data were processed

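MeRIP-seq of iBAT gave 4 samples, IP and input for each genotype, with reads of 150 bp. The authors' methods name MACS2 for the peaks, and the submitters' processing notes list fastp 0.19.11, BWA 0.7.12, HOMER 4.9.1 and GRCm38.p6. The deposited lists hold, per peak, a p-value, log10 scores for it and for the false discovery rate, and a fold enrichment, which is the ratio of IP to input for that genotype. The largest false discovery rates listed were 0.0447 and 0.0479. The layout with spliced blocks differs from that of MACS2, so the caller is not settled. Of the 29 peaks on the 10 genes, 29 had their centre inside the RefSeq span of their gene in GRCm38.p6. The shares were 98.1% and 98.0% over the peaks of each list whose gene was in RefSeq.

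Starting from the lists, peaks were matched with pandas 2.3.3, numpy 2.4.6 and scipy 1.17.1 under Python 3.11.15, and figures used matplotlib 3.10.9. Ranks are within a list, with false discovery rates of 0 ordered by p-value. The 5 equal classes follow that rank. The matching code was run on a simulation that started from 18400 peaks, and it returned what had been built in. That outcome was set by how the simulation was made, so it does not test the matching between the real lists. All peaks of the 10 genes are described. Paralogs with a peak were named, the 3 genes nearest in percentiles were sought, and other lists are counts, with genes of the marker lists named after their values had been seen. The genes and lists were chosen with earlier results of these data known. Alternatives for overlap, threshold, gene assignment and window were computed. The motif count and its alternative were not run, as sequence was not used here.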

Additional observations from a re-analysis of the deposited data

How the results depend on the processing

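Of 20 alternatives for 5 counts, 18 stayed within 1.5 times the main count, a rule that leaves aside how many peaks were considered. Exceptions were the *Wtap*-BKO peaks found, 14 of 14 when any peak on the same gene counted (main 9; 88.9% of all peaks by that rule), and the peaks near a 3ʹ end, 16 of 29 with a window of 2000 bp (main 10). Control peaks found ranged from 6 of 15, where an overlap of 50% or more was asked for (59.3% of all peaks), to 12 of 15 for any peak on the gene (88.2%). Below 1e-05 in both lists, 7 of 9 control and 7 of 11 *Wtap*-BKO peaks were found, against 66.2% and 71.9% of all such peaks. With all peaks of the other list allowed as matches, 8 of 9 and 7 of 11 were found, against 79.6% and 84.6%. In both settings the control share on the 10 genes lay above that of all peaks, while by the main rule it lay below (53.3% against 67.8%). With a gap of up to 100 bases, 10 *Wtap*-BKO peaks were found, as the second *Ucp1* peak joined. Genes with a peak under 1e-05 numbered 8 in control and 7 in *Wtap*-BKO mice. No paired analysis was possible because each genotype is 1 pool, and no replicate could be left out. The motif count was not run. Unknown depth limits every statement on a missing peak.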

Other observations

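Markers of 2 further cell types were counted beside the thermogenic genes. Of 16 macrophage markers, 11 had peaks in both lists and 4 in *Wtap*-BKO mice only (*Ctss*, *Laptm5*, *Mrc1* and *Msr1*). They carried 19 control peaks, and all 19 were found in *Wtap*-BKO mice, while 18 of their 35 *Wtap*-BKO peaks were found in control mice. Over all gene symbols 68.8% of peaks were found each way, and 15.3% of symbols with a *Wtap*-BKO peak had none in controls. Of 10 fibroblast markers, 9 had peaks in both lists, with 13 and 15 peaks. The 10 thermogenic genes carried 15 and 14 peaks.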
